A study of Mus musculus with 6 samples.

Results

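GABA-B receptors are the metabotropic receptors for GABA, and GIRK channels are the inwardly rectifying potassium channels that such receptors open. The genes described are the 2 receptor subunit genes Gabbr1 and Gabbr2, the genes Kctd8, Kctd12 and Kctd16 of the receptor's auxiliary KCTD proteins, and the GIRK subunit genes Kcnj3, Kcnj6 and Kcnj9. They were chosen by symbol, and all 8 were found among the 23306 rows of the count table. RNA bound to ribosomes tagged with haemagglutinin was sequenced from parvalbumin neurons of the frontal cortex of male C57BL6 mice. Mice of the first group had Fxr1, which encodes a relative of the fragile X protein FMRP that binds RNA, knocked out conditionally with a parvalbumin Cre driver, and those of the second group were labelled wild type. Per the labels, the animals come from a cross of a parvalbumin Cre line with mice carrying the tagged ribosomal protein RPL22, so that Cre limits both the tag and the deletion to cells in which the parvalbumin gene is or has been active. Ages are not given in the labels. The series holds 6 libraries, 3 of each genotype, and 4 were analysed here: knockout replicates 1 and 3 and wild type replicates 2 and 3.

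A GABA-B receptor is an obligate heterodimer. The subunit encoded by Gabbr1 binds GABA, and the subunit encoded by Gabbr2 couples to Gi/o proteins and carries the receptor to the cell surface. The G-protein beta-gamma dimers that are released slow presynaptic calcium channels and open GIRK channels, which hyperpolarises the cell. KCTD proteins bind the tail of the Gabbr2 product and set the kinetics of the response. In cortical interneurons, parvalbumin cells included, GABA-B receptors restrain transmitter release from the axon terminals and also act on dendrites.

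The coding sequences of the GIRK subunits show how close these genes are and where they part. The stretches around the potassium selectivity filter are given on the coding strand, 5′ to 3′, from GENCODE M21 transcripts on mm10, with the bases that encode the filter motif in capitals. They lie within a single exon each, at chr2:55437597-55437671 (plus strand) for Kcnj3, chr16:94832747-94832821 (minus strand) for Kcnj6 and chr1:172326154-172326228 (minus strand) for Kcnj9.
Kcnj3: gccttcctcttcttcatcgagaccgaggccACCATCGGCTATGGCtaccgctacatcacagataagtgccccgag
Kcnj6: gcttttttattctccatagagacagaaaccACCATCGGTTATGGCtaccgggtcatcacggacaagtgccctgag
Kcnj9: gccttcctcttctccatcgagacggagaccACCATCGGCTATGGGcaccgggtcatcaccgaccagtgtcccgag
Of the 75 bases, 16 differed between Kcnj3 and Kcnj6, 12 between Kcnj3 and Kcnj9 and 14 between Kcnj6 and Kcnj9, with 1 or 2 of these inside the capitals. Where their coding sequences aligned without gaps, over 1163 to 1226 bases, the 3 genes were 67.7% to 70.6% identical in pairs. Bases set against a gap were left out, and the whole coding sequence of Kcnj3 has 1503 bases. The longest run of bases that any pair of their transcripts shared was 17. Counted in the same way, the 3 KCTD genes were 67.6% to 72.8% identical, over 827 to 1263 aligned bases. Their longest shared run was 26 bases, between Kctd8 and Kctd16. Gabbr1 and Gabbr2 were 61.5% identical over 2457 aligned bases. Their longest shared run was 12 bases in the coding sequence and 43 bases over whole transcripts. Kctd12 and the related gene Kctd12b shared a run of 48 bases over whole transcripts. The read length is not known here, so how often a read could match a second gene was not measured.

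Total counts ranged from 9696126 to 10301280 per library. Fxr1 had 181 and 192 counts in knockout and 954 and 1036 counts in wild type, a log2 fold change of −2.45 (SE 0.10; adjusted p = 1.77e-15 by edgeR), which matches the labels. Of the genes listed for parvalbumin neurons, Gad1, a GABA-synthesising enzyme gene, stood at 4235 ± 133 CPM and Pvalb at 254 ± 10.9 CPM (SD, n = 4). CPM are counts scaled by the total of each library. Summed over the 7 listed genes, these transcripts took 10237 and 10229 CPM in knockout and 10531 and 10699 CPM in wild type. Both knockout libraries lay below both wild type libraries. Gad1, Gad2 (mean 831 CPM) and Slc32a1 (mean 790 CPM) are shared by GABA neurons in general, and Erbb4 (mean 1190 CPM) by other interneurons. The sum is therefore not particular to parvalbumin cells. Of these 7 genes 6 had values below wild type, against 50.4% of all tested genes, and their median log2 fold change was −0.058. By edgeR's test 0 passed, and 0 had an unadjusted p under 0.05, against 3.23% of all tested genes. Pvalb measured 248 and 241 CPM in knockout, against 262 and 264 CPM in wild type. Groups without overlap, as for Pvalb and for the sum, were found for 30.1% of all tested genes. Transcripts of other cells were present too: summed over 7 markers, excitatory neuron transcripts took 1076 and 1120 CPM in knockout and 1124 and 1026 CPM in wild type. The 7 astrocyte markers took 516 and 599 CPM in knockout and 543 and 505 CPM in wild type. The 8 oligodendrocyte and precursor markers took 276 and 383 CPM in knockout and 297 and 269 CPM in wild type. No marker of these lists was at 0. Single genes weighed heavily: Camk2a alone averaged 698 ± 28.3 CPM of the excitatory sum, and Slc1a2 alone 472 ± 35.2 CPM of the astrocyte sum. Markers of other interneurons summed to 198 and 248 CPM in knockout and 229 and 245 CPM in wild type, those of microglia to 12.6 and 12.6 CPM in knockout and 13.6 and 12.9 CPM in wild type, and those of endothelial cells to 11.4 and 20.6 CPM in knockout and 15.1 and 12.7 CPM in wild type. Above wild type were 5 of 7 excitatory markers (median log2 fold change 0.090), 6 of 7 astrocyte markers (0.089) and 7 of 8 oligodendrocyte and precursor markers (0.21). So were 3 of 6 tested markers of other interneurons, 1 of 4 of microglia and 3 of 4 of endothelial cells. Over all 12449 tested genes 6169 were above wild type. By the adjusted test of edgeR 0 of these markers passed. GABA-B and GIRK genes are also expressed by excitatory neurons, and the part of such cells in the levels and fold changes below was not tested. In such bulk samples fewer cells of a type and less RNA per cell cannot be told apart.

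The receptor genes stood highest. Gabbr2 (chromosome 4, 46662305 to 46991873, minus strand) had 8377 and 7993 counts in knockout replicates 1 and 3 and 8329 and 8070 counts in wild type replicates 2 and 3. These were 824 and 777 CPM in knockout, against 859 and 783 CPM in wild type. Wild type replicate 2 was the highest library and knockout replicate 3 the lowest, and the groups overlapped. Gabbr1 (chromosome 17, 37045966 to 37075067, plus strand) measured 547 and 530.1 CPM in knockout, against 566 and 529.8 CPM in wild type, again with overlapping groups. Among the 12449 tested genes, Gabbr2 lay at percentile 98.8 and Gabbr1 at percentile 97.7 of the mean CPM. Gabbr1 gives rise to subunit variants from different start sites, which counts per gene do not separate.

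The KCTD genes were the lowest of the set. Kctd16 (chromosome 18, 40256962 to 40531630, plus strand) measured 31.1 and 32.8 CPM in knockout, against 31.4 and 34.5 CPM in wild type. Kctd12 (chromosome 14, 102976581 to 102982637, minus strand), whose product speeds the desensitisation of receptor responses, measured 22.0 and 24.98 CPM in knockout, against 23.7 and 24.3 CPM in wild type. Kctd8 (chromosome 5, 69109285 to 69341679, minus strand) measured 22.4 and 19.1 CPM in knockout, against 25.2 and 20.1 CPM in wild type. The groups overlapped for all 3 genes. Kctd8 had the widest range of the 8 genes relative to its mean, 28.2% over the 4 libraries, with 196 to 244 counts per library. Its mean was 21.7 ± 2.72 CPM (SD, n = 4). Counting error at the lowest count is 7.14%, which is the SD of a single count and not a range. The related gene Kctd12b had 8 and 2 counts in knockout and 1 and 2 counts in wild type, too few to be tested.

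Of the GIRK genes, Kcnj9, which encodes GIRK3, was the most abundant. Kcnj9 (chromosome 1, 172320501 to 172329318, minus strand) measured 242 and 209 CPM in knockout, against 222 and 203 CPM in wild type. Knockout replicate 1 was the highest library and wild type replicate 3 the lowest, and wild type replicate 2 stood above knockout replicate 3. Kcnj3 (chromosome 2, 55435970 to 55598145, plus strand), which encodes GIRK1, the subunit that forms no working channel in the membrane on its own, measured 142 and 159 CPM in knockout, against 144 and 167 CPM in wild type. Kcnj6 (chromosome 16, 94748636 to 94997701, minus strand), which encodes GIRK2, measured 70.5 and 72.5 CPM in knockout, against 70.9 and 74.0 CPM in wild type. Its range over the 4 libraries was 4.80% of its mean, the narrowest of the 8 genes. The remaining GIRK gene, Kcnj5, known from heart atria, had 0 and 1 counts in knockout and 2 and 0 counts in wild type.

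**Figure D1:**
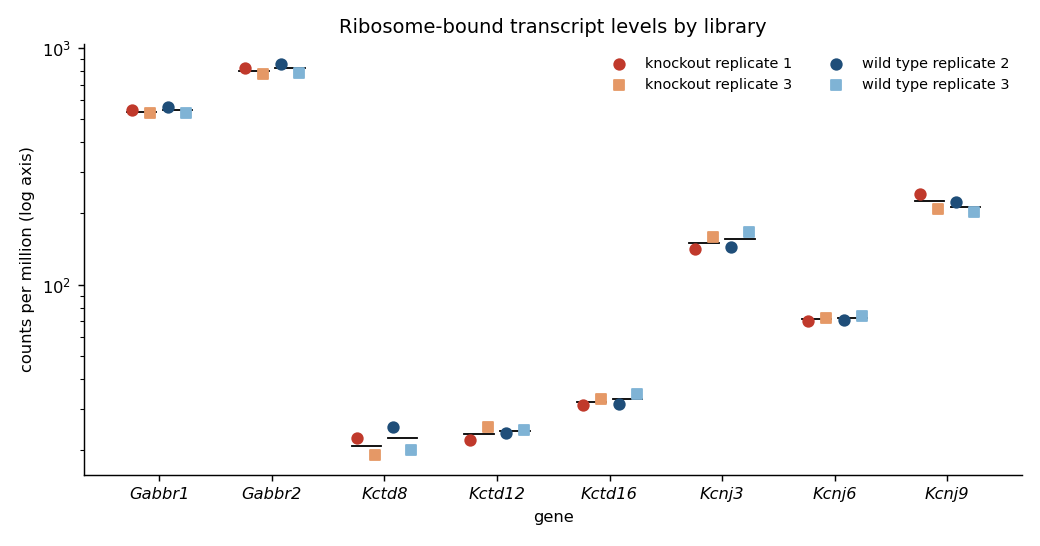
CPM (log axis) of the 8 genes in each library; circles and squares are single libraries, knockout in red and orange to the left of wild type in blue, and bars are the genotype means. The genes spread from 19.1 CPM (Kctd8 in knockout replicate 3) to 859 CPM (Gabbr2 in wild type replicate 2), and for no gene do the genotypes separate.

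To compare genes with one another, counts were divided by the length of the gene's merged exons and scaled so that every library has the same sum (TPM). On that scale Gabbr2 stood at 659.6 ± 29.5 TPM (SD, n = 4, as for the values that follow) and Gabbr1 at 380.5 ± 10.9 TPM. The GIRK genes followed, with Kcnj9 at 278 ± 22.4 TPM, Kcnj3 at 159.6 ± 12.99 TPM and Kcnj6 at 51.3 ± 1.17 TPM. The KCTD genes came last, with Kctd16 at 50.7 ± 2.45 TPM, Kctd8 at 35.0 ± 4.27 TPM and Kctd12 at 21.3 ± 1.11 TPM. Each gene's lowest library lay above the highest library of the next gene in this order, except for Kcnj6 and Kctd16, whose ranges overlapped. The order was the same with the longest annotated transcript as the length, although Kcnj6 then stood at 81.5 TPM. For scale, Pvalb stood at 1326 ± 53.4 TPM.

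The receptor genes summed to 1058 and 1005 TPM in knockout and 1089 and 1009 TPM in wild type. The GIRK genes summed to 508 and 484 TPM in knockout and 479.6 and 485 TPM in wild type, and the KCTD genes to 105 and 104.6 TPM in knockout and 110.3 and 108 TPM in wild type. For the KCTD sum both knockout libraries lay below both wild type libraries, which did not hold for any of its 3 genes alone. Among single tested genes, 30.1% had genotypes without overlap. The KCTD sum was formed after the levels were seen and was not tested.

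Subunit ratios within a library do not depend on its depth. They do depend on the length chosen for each gene, here its merged exons. There were 0.571 and 0.588 Gabbr1 transcripts per Gabbr2 transcript in knockout and 0.567 and 0.582 in wild type. The mean was 0.577 ± 0.0095 (SD, n = 4), the tightest over libraries of the 6 ratios examined. With the longest transcript as length this mean was 0.734, a shift far beyond that SD. Per Kcnj9 transcript there were 0.482 and 0.626 Kcnj3 transcripts in knockout and 0.531 and 0.678 in wild type, so that knockout replicate 1 and wild type replicate 2 held fewer Kcnj3 transcripts per Kcnj9 transcript than the other libraries. Per Kcnj6 transcript there were 3.11 ± 0.182 Kcnj3 transcripts and 5.43 ± 0.54 Kcnj9 transcripts. These 2 ratios were 1.48 and 2.87 with the longest transcript, which for Kcnj6 is much shorter than its merged exons. The ratio of Kctd12 to Kctd16 was 0.421 ± 0.0177, or 0.335 with the longest transcript. That of Kctd8 to Kctd16 was 0.693 ± 0.112, or 0.651.

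The genotypes overlapped for all 6 ratios. On the log2 scale, knockout minus wild type, the differences were 0.012 for Gabbr1 to Gabbr2, −0.13 for Kcnj3 to Kcnj9, −0.027 for Kcnj3 to Kcnj6, 0.10 for Kcnj9 to Kcnj6, 0.010 for Kctd12 to Kctd16 and −0.079 for Kctd8 to Kctd16. Each gave p = 0.667 in a two-sided exact permutation test, and 0.667 after Benjamini-Hochberg adjustment over the 6 ratios. With 2 libraries against 2 this test cannot go below 0.33. Every one of these differences changed sign when a single library was left out (the closing section gives the ranges).

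**Figure D2:**
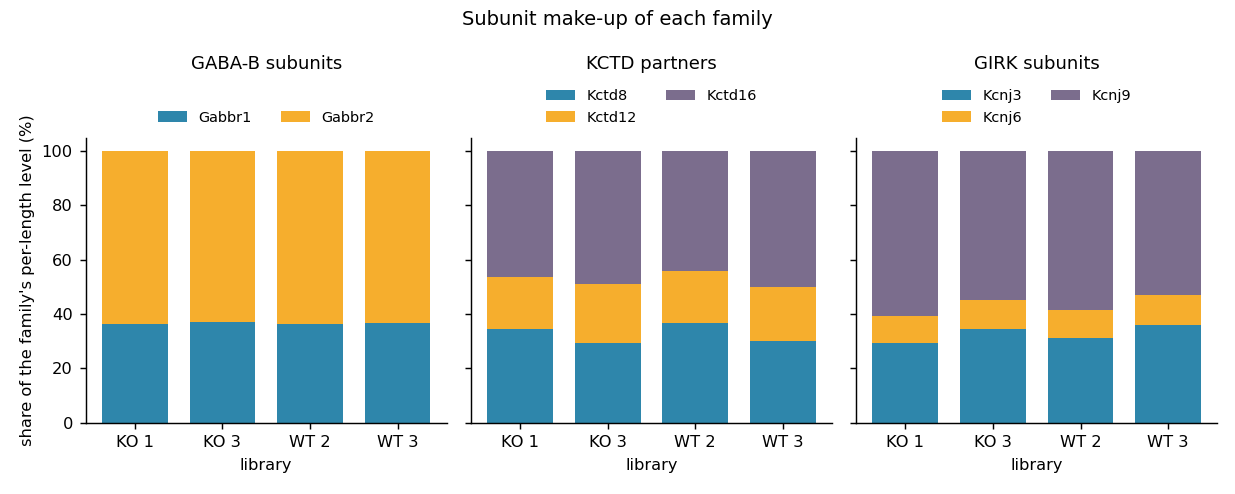
Stacked bars give the share (%) of each gene in the summed per-length level of its family, for each library, with knockout (KO) to the left of wild type (WT). Gabbr1 takes 36.2% to 37.0% of the receptor pair in all 4 libraries, while Kcnj9 takes 53.1% to 60.8% of the GIRK genes and Kctd16 44.2% to 49.9% of the KCTD genes. These shares use merged exons as length. With the longest transcript the mean shares are 42.3% for Gabbr1, 53.6% for Kcnj9 and 50.5% for Kctd16.

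The comparison of genotypes asked whether loss of Fxr1 changed the ribosome-bound transcripts of this pathway. No gene of the 8 passed edgeR's quasi-likelihood test: 0 of 8 had an adjusted p under 0.05, against 0.0321% of all tested genes. An unadjusted p under 0.05 was reached by 0 of 8, against 3.23% of all tested genes, and DESeq2 and limma voom also called 0 of 8. The genotypes were without overlap in 0 of 8 genes, against 30.1% of all tested genes. This count is not separate from the order of libraries described below, which makes the genotypes overlap in each of the 8 genes. All 8 genes passed the filter on low counts. The labels tie no library to an animal of its own, and the p-values thus measure a spread between libraries that may in part be technical.

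The estimated changes were small, and the intervals given here come from edgeR's model. For Gabbr1 the log2 fold change, knockout over wild type, was −0.024 (SE 0.067), with a 95% interval of 0.894 to 1.08-fold, and for Gabbr2 it was −0.035 (SE 0.068), with an interval of 0.886 to 1.07-fold. Among the GIRK genes, Kcnj3 had −0.047 (SE 0.086), with an interval of 0.855 to 1.09-fold. Kcnj6 had −0.018 (SE 0.088), with an interval of 0.871 to 1.12-fold. Kcnj9 was the gene with a value above 0, at 0.087 (SE 0.081), with an interval of 0.946 to 1.19-fold. The KCTD genes, with the fewest counts, had the widest intervals: Kctd8 at −0.12 (SE 0.14) with 0.751 to 1.12-fold, Kctd12 at −0.029 (SE 0.13) with 0.817 to 1.17-fold and Kctd16 at −0.044 (SE 0.11) with 0.825 to 1.14-fold. Adjusted p was 0.998 by edgeR for each of the 8 genes. A change of 1.5-fold in either direction lay outside all 8 intervals in this model. DESeq2's Wald test gave larger SEs, at 0.21 for Kctd8, 0.19 for Kctd12 and 0.17 for Kctd16.

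The sign of these values depended on single libraries. Below 0 were 7 of 8 genes, against 50.4% of all tested genes, and the median log2 fold change was −0.032, against −0.0015 over all tested genes. The 7 genes listed for parvalbumin neurons, some of them shared with other GABA neurons, had a median of −0.058 in the same direction. Their part in the values of the 8 member genes was not tested. With knockout replicate 3, wild type replicate 2 or wild type replicate 3 left out the count was 4 of 8, and without knockout replicate 1 it was 6. Gabbr1 had 0.012 without knockout replicate 3 and 0.018 without wild type replicate 2, and Gabbr2 had 0.020 and 0.026 without the same libraries. Kctd8 turned to 0.0039 and 0.041 without these. Kctd12 had 0.045 and Kcnj3 0.022 without knockout replicate 1, where Kcnj9 fell below 0, at −0.036. Without wild type replicate 3, Kctd16 had 0.036, Kcnj3 0.078 and Kcnj6 0.024.

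**Figure D3:**
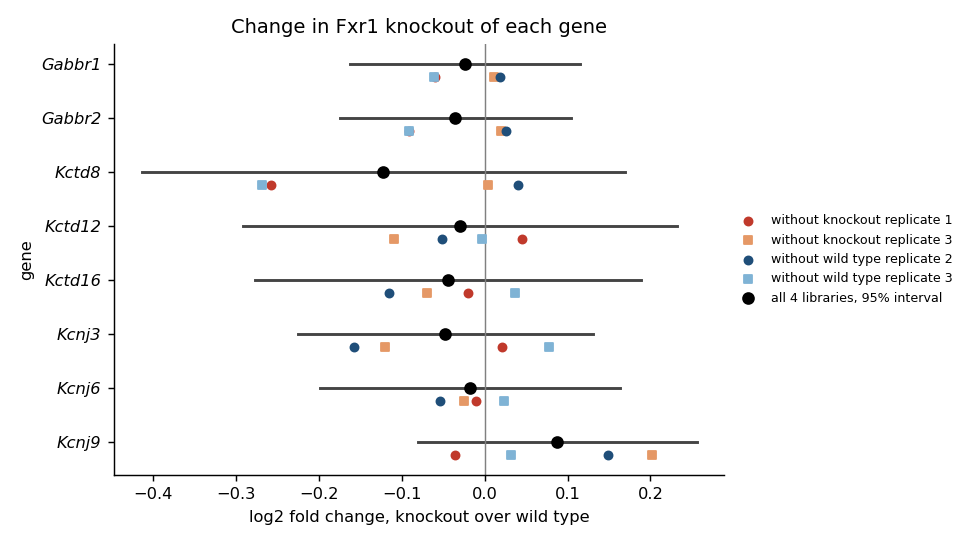
Log2 fold change (knockout over wild type) of each gene by edgeR: black points and lines are the estimate and its 95% interval from all 4 libraries, and coloured symbols under each line are the estimates with 1 library left out. All 8 intervals include 0, and for each gene the symbols fall on both sides of 0.

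The libraries differed from one another along another line. Knockout replicate 1 and wild type replicate 2 were the higher pair for Gabbr1, Gabbr2, Kctd8 and Kcnj9 and the lower pair for Kctd12, Kctd16, Kcnj3 and Kcnj6. In each of the 8 genes these libraries thus lay together on one side of knockout replicate 3 and wild type replicate 3. This order held for 41.1% of all tested genes, and no label names a batch that would pair these libraries. The split was picked after the values of the 8 genes were seen, and it was not tested. The widest deviations from a gene's mean log2 CPM were 0.21 for Kctd8, in wild type replicate 2, and 0.16 for Kcnj9, in knockout replicate 1. Knockout replicate 1 also differed in the ribosomal RNA precursor Rn45s, at 0.711% of its counts against 0.283% to 0.315% in the others. The part of this in the member values was not tested.

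The receptor genes followed each other most closely. Across the 4 libraries, the root mean square difference between the centred log2 CPM of Gabbr1 and Gabbr2 was 0.021, the smallest of any pair among the 8. The member nearest to Kcnj9 was Gabbr2 (0.074), as it was for Kctd8 (0.095). Nearest to Kcnj3 was Kctd16 (0.044), nearest to Kctd12 was Kcnj6 (0.051), and Kcnj6 and Kctd16 were nearest to each other (0.031). These distances describe 4 libraries that share their preparation, and they were not corrected for counting error. At each gene's lowest count that error was 1.12% for Gabbr2 and 1.35% for Gabbr1. It was 5.74% for Kctd16, 6.68% for Kctd12 and 7.14% for Kctd8. Its part in which genes lay nearest was not tested.

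**Figure D4:**
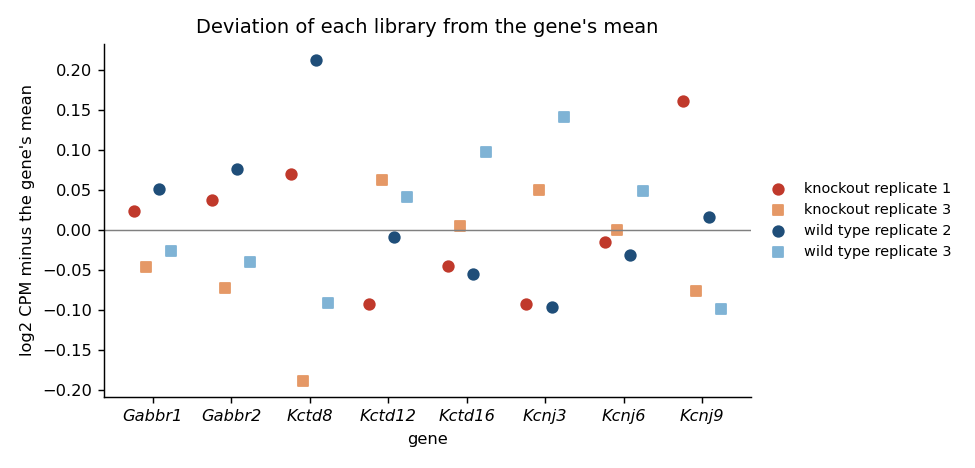
Log2 CPM of each library minus the gene's mean over the 4 libraries, for the 8 genes; circles are knockout replicate 1 and wild type replicate 2, and squares are knockout replicate 3 and wild type replicate 3. Circles lie above squares for Gabbr1, Gabbr2, Kctd8 and Kcnj9 and below them for the other genes, with the largest deviation at 0.21 (Kctd8).

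Genes on both sides of the receptor and channel were read in 5 lists, none of which was tested as a set. Over all 12449 tested genes, for comparison with each list, 6169 were higher and 6280 lower in knockout. Their median log2 fold change was −0.0015, and 0.0321% passed. Of proteins reported to bind or traffic the receptor or the channel, 9 of 10 were tested and 0 passed, with 4 higher and 5 lower in knockout and a median log2 fold change of −0.041. App, the amyloid precursor protein gene, whose product binds the sushi domains of the longer Gabbr1 product, measured 4082 and 4272 CPM in knockout and 4248 and 4349 CPM in wild type. Nsf, a trafficking ATPase gene, averaged 1817 ± 59.0 CPM (SD, n = 4). Snx27, a sorting nexin gene whose product moves GIRK channels through endosomes, gave 0.10 on the log2 fold change scale (SE 0.078) and the adhesion gene Ncam1 gave −0.083 (SE 0.066), and these were the smallest p-values of the list.

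Of the Gi/o protein subunit genes, 16 of 18 were tested and 0 passed, with 12 higher and 4 lower in knockout. Their median was 0.090, against −0.0015 over all tested genes, of which 6169 were higher and 6280 lower. Gnao1, the gene of the main neuronal alpha subunit of this class, measured 447 and 469 CPM in knockout and 445 and 445 CPM in wild type. Gnb1, a beta subunit gene, measured 626 and 634 CPM in knockout and 612 and 591 CPM in wild type. The gamma subunit gene Gng5 had 1.67 and 1.94 CPM in knockout and 0.928 and 0.68 CPM in wild type, at an unadjusted p of 0.0238 and an adjusted p of 0.998 by edgeR. Gng7, a gamma subunit gene that is abundant in the striatum, measured 71.5 and 71.7 CPM in knockout and 65.8 and 61.4 CPM in wild type (log2 fold change 0.17, SE 0.090), and did not pass. Summed over the 6 of 7 listed genes that the count table holds, striatal neuron markers took 70.6 and 69.9 CPM in knockout. In wild type they took 59.7 and 58.1 CPM, with none at 0. All 6 had values above wild type, against 6169 of the 12449 tested genes, and their median log2 fold change was 0.38. An unadjusted p under 0.05 was reached by 4 of the 6, against 3.23% of all tested genes. By the adjusted test of edgeR 0 of these markers passed. Their part in the Gng7 value was not tested.

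RGS proteins shorten G-protein signals, and complexes of R7 RGS proteins with the beta subunit encoded by Gnb5 act on GIRK channels. Of 19 such genes 17 were tested and 0 passed, with 9 higher and 8 lower in knockout and a median of 0.022. Rgs7bp, the gene of a membrane anchor of these complexes, measured 713 and 736 CPM in knockout and 689 and 696 CPM in wild type. Gpr158, a receptor gene whose product recruits them to the membrane, measured 255 and 272 CPM in knockout and 287 and 290.2 CPM in wild type. The groups of Gpr158 did not overlap, nor did those of Rgs7bp, which is the case for 30.1% of all tested genes. The log2 fold change of Gpr158, −0.13 (SE 0.071), did not pass (adjusted p = 0.998 by edgeR). Rgs5, which in brain marks pericytes, had 2.16 and 2.82 CPM in knockout and 1.44 and 1.07 CPM in wild type, and did not pass either.

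Other inward rectifiers showed which Kir genes were detected beside the GIRK genes. Of 12 genes 6 passed the filter on low counts and 0 passed the test, with 4 higher and 2 lower in knockout and a median of 0.071. Kcnj4, a strong inward rectifier gene, measured 76.9 and 69.4 CPM in knockout and 83.7 and 75.2 CPM in wild type, and Kcnj12 measured 47.5 and 46.9 CPM in knockout and 43.2 and 45.4 CPM in wild type. Per length, Kcnj4 stood at 193 ± 14.3 TPM, between Kcnj9 and Kcnj3, and Kcnj12 at 90.6 ± 4.19 TPM. Kcnj2, at 4.29 ± 0.975 CPM, had a log2 fold change of 0.33 (SE 0.28). Of the other KCTD genes, 15 of 19 were tested and 0 passed, with 11 higher and 4 lower in knockout and a median of 0.071. Over all tested genes 6169 were higher and 6280 lower, with a median of −0.0015. The most abundant were Kctd17, at 117 and 105 CPM in knockout and 108 and 103.7 CPM in wild type, and Kctd3, at 58.8 and 61.1 CPM in knockout and 56.2 and 55.3 CPM in wild type. Kctd6 (log2 fold change −0.19, SE 0.13) and Kctd7 (0.22, SE 0.16) had the smallest p-values. Per length, Kctd17 stood at 232 ± 13.7 TPM, above each of the KCTD genes that bind GABA-B receptors.

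Some exons of these genes overlap other annotated transcripts. In GENCODE M21, opposite-strand noncoding transcripts overlap exons of Kcnj3, Kcnj6, Kcnj9, Kctd8, Kctd12 and Kctd16, over 1621 bases in Kcnj3 and, with a microRNA on its own strand, 3889 of the 6057 exon bases of Kctd12. Exons of Gabbr1 and Gabbr2 overlap no other gene. The libraries were made with a stranded kit, but how strand was treated in counting is not known from the labels. Reads of such partners may be included in the values of these 6 genes or have been dropped.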

How the data were processed

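Per the labels' protocols, RNA pulled down with tagged RPL22 was made into libraries with Takara's SMARTer stranded kit for total RNA. STAR and the build mm10 are named in the submitters' processing notes. The aligner version, counting tool, annotation and treatment of strand are not given there or in the labels. The deposited table holds raw counts by gene symbol in 23306 rows, of which 27 carry symbols turned into dates and 4 share a symbol. Of 6 columns, 4 bear the title of 1 sample each and were used. The other 2 columns carry the same title and were not used. Genotypes come from the labels, and replicate numbers follow accession order.

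The test was edgeR 4.0.16 under R 4.3.3 (TMM, filterByExpr, robust quasi-likelihood fits, Benjamini-Hochberg adjustment over 12449 tested genes). CPM values use library totals, and centred values use log2 CPM with TMM and a prior count of 2. Per-length values (TPM) use merged exons of GENCODE M21 by symbol, for the genes with a single match. The fit was checked on simulated counts. Alternatives were DESeq2 1.42.0 (size factors, Wald test), limma voom (3.58.1), library totals, other filters (none, or at least 5 CPM in 3 libraries), non-robust fits, tables without ribosomal and small RNA genes, each library left out, and another gene length. Total counts, from 9696126 to 10301280, leave a counting error of 1.12% for Gabbr2 and 7.14% for Kctd8 in the library with the fewest reads of each. The members and gene lists were chosen with earlier results of these data known. Named were the 8 members, Fxr1, Kcnj5 and, of each pathway list, the 2 genes of highest mean CPM and the 2 of smallest p. Marker lists are given as sums, with single genes for parvalbumin neurons and the most abundant gene of the excitatory and astrocyte lists. Kctd12b was named after its counts were seen.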

Additional observations from a re-analysis of the deposited data

How the results depend on the processing

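None of the 96 fits of a member under 12 alternatives each passed the adjusted threshold; the lowest adjusted p was 0.833 by edgeR, for Kcnj9 without knockout replicate 3. The direction turned in 12 of these, each with a library left out, and in none under another normalization, test or filter. Over the libraries left out, the log2 fold change ranged from −0.061 to 0.018 for Gabbr1, −0.092 to 0.026 for Gabbr2, −0.27 to 0.041 for Kctd8, −0.11 to 0.045 for Kctd12, −0.12 to 0.036 for Kctd16, −0.16 to 0.078 for Kcnj3, −0.054 to 0.024 for Kcnj6 and −0.036 to 0.20 for Kcnj9. The median of the 8 ranged from −0.028 to 0.011, and 4 to 6 were lower. The log2 ratio, knockout minus wild type, ranged from −0.0086 to 0.032 for Gabbr1/Gabbr2, −0.32 to 0.062 for Kcnj3/Kcnj9, −0.11 to 0.052 for Kcnj3/Kcnj6, −0.025 to 0.23 for Kcnj9/Kcnj6, −0.042 to 0.063 for Kctd12/Kctd16 and −0.31 to 0.15 for Kctd8/Kctd16. The cause was not tested.

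Among all tested genes 4 passed (2 higher, 2 lower). This count became 1 with library totals, 2 by DESeq2's Wald test, 13 with no filter on low counts and 9 to 48 with a library left out, where the lone library of a genotype is assumed to vary like the others. With the longest transcript as length, levels were 425 TPM (Gabbr1), 579 (Gabbr2), 16.1 (Kctd12), 48.1 (Kctd16), 120.5 (Kcnj3), 81.5 (Kcnj6) and 233 (Kcnj9). The ratios were then 0.734 (Gabbr1/Gabbr2), 1.48 (Kcnj3/Kcnj6), 2.87 (Kcnj9/Kcnj6) and 0.335 (Kctd12/Kctd16). No paired analysis was possible because no label pairs a library of one genotype with one of the other.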
